A study of Mus musculus with 20 samples.

Results

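Müller glia are the principal glial cells of the retina and span its whole thickness. They clear glutamate and potassium from around neurons, supply metabolites to photoreceptors and buffer carbon dioxide and protons through carbonic anhydrase. Car2, Sox9 and Spc25 are genes reported in these cells, and their expression was followed here in RNA of adult retina and of newborn cortex. Car2 encodes carbonic anhydrase 2, a cytosolic enzyme that converts carbon dioxide and water to bicarbonate and a proton, and it is also made by oligodendrocytes and red cells. Sox9 encodes a transcription factor with an HMG-box DNA-binding domain, found in retinal progenitors and Müller glia and, in brain, in radial glia and astrocytes. Spc25 encodes a subunit of the NDC80 complex, which together with Ndc80, Nuf2 and Spc24 attaches kinetochores to spindle microtubules in mitosis.

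The 3 genes were found by their symbol in the platform annotation, which gave 1 probe for each, 3 of 10500 probes and 3 of 9230 named genes. All 3 probes passed the filter on missing values. The study compared 2 pools of total RNA, retina of adult C57/B6 mice and postnatal day 1 cortex of Swiss-Webster mice. Both pools were aliquoted to 5 CodeLink arrays at site 2 and 5 at a first site, which gave 20 arrays in 4 groups. Tissue, strain and age differ together between the pools and cannot be told apart. The number of animals in a pool is not given in the sources used here, and arrays of a group are technical replicates, so every p-value measures the spread between arrays of the same RNA. Precision is limited by how few arrays there are.

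The tissue labels matched their defining genes. All 8 photoreceptor genes tested were called higher in retina at both sites, and 6 of 7 tested genes of cortical neurons and their precursors were called lower. Intensities are on a linear scale without a unit, and array medians lay between 0.927 and 0.963. Differences are log2 intensity of retina minus cortex, or of site 2 minus the first site, from a limma model of all 20 arrays. A probe was called when its Benjamini-Hochberg adjusted p over 10339 probes was under 0.05 and its difference was at least 2-fold. Retina and cortex differed by this rule in 24.6% of probes at site 2 (11.1% higher in retina, 13.5% lower) and in 24.9% at the first site (11.9% higher, 13.0% lower). At any size of difference, 60.4% and 59.9% had an adjusted p under 0.05. The genes were chosen with these differences known, Spc25 for being high in retina. Car2 and Spc25 are therefore given no p-value between tissues, and their calls are read as descriptions. The p-values of Sox9 between tissues are likewise read as a description.

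The Spc25 gene lies on mouse chromosome 2 (chr2:69193895-69206213, GRCm38.p6). Its probe was bright in adult retina and much dimmer in newborn cortex. At site 2 the 5 retina arrays read 15.1, 14.0, 12.0, 14.95 and 13.7, against 0.601, 0.578, 0.578, 0.555 and 0.484 on the cortex arrays. The lowest retina array lay far above the highest cortex array. At the first site the retina arrays read 21.5, 20.4, 20.1, 21.1 and 20.1, against 0.913, 1.03, 0.927, 1.05 and 1.01 on the cortex arrays. The tissues again did not overlap, as was the case for 48.2% of probes at site 2 and 53.3% at the first site. The log2 difference was 4.64 (SE 0.07, 24.9-fold) at site 2 and 4.39 (SE 0.07, 21.0-fold) at the first site. In cortex Spc25 read 8.52 to 11.8 times the 5th percentile of its array at site 2, where 37.0% to 40.6% of an array's probes were dimmer, and 22.1 to 26.3 times at the first site. Of the 10339 probes, 47 had a higher retina minus cortex difference than Spc25 at site 2 and 63 at the first site.

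**Figure D1:**
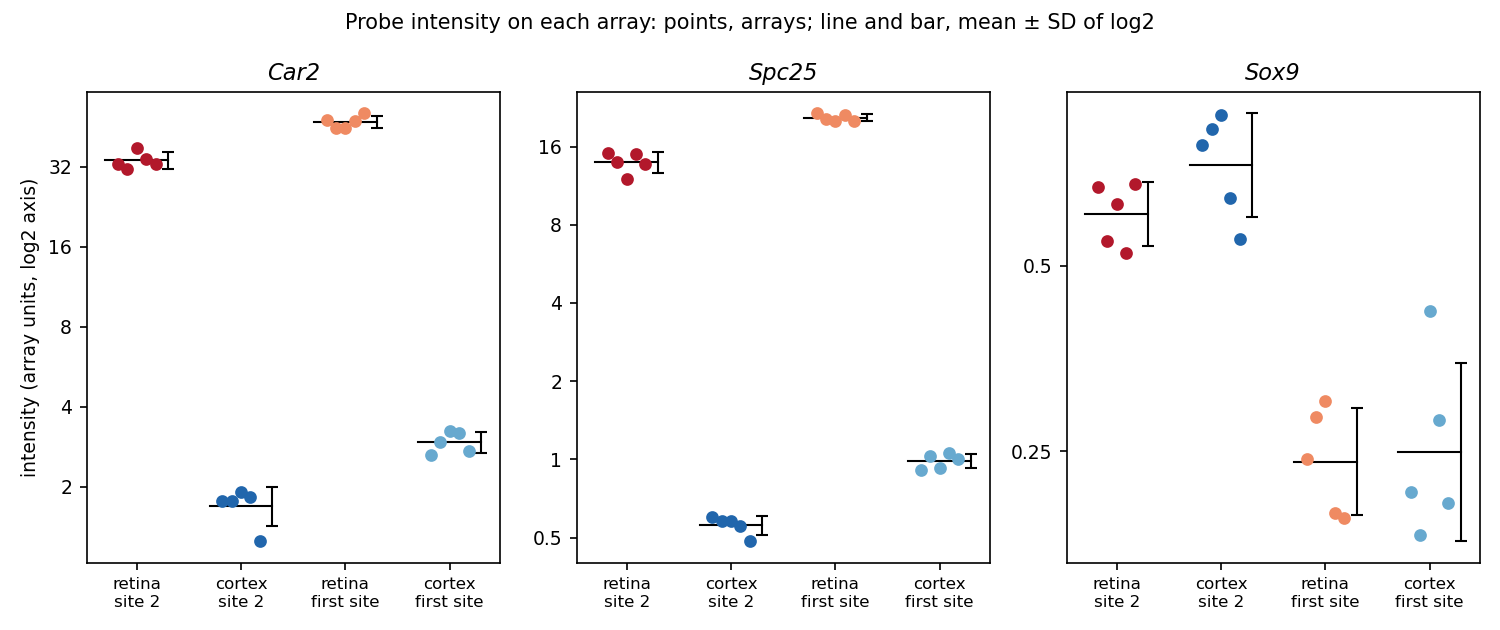
Intensity of the Car2, Spc25 and Sox9 probes on each of the 20 arrays, on a log2 axis, with each point an array and the line and bar the mean and SD of log2 intensity in a group of 5. Car2 and Spc25 separate retina from cortex at both sites (Spc25 at 12.0 to 15.1 in retina and 0.484 to 0.601 in cortex at site 2), whereas Sox9 separates site 2 from the first site and its tissues overlap.

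The start of Spc25 is shown because 2 short sequences known from promoters of mitotic genes lie there. One is TTTGAA, the cell cycle genes homology region (CHR), through which many such genes are repressed in non-dividing cells, and the other is the CCAAT box. The promoters of Mki67 and Top2a, genes of dividing cells, are set beside it. The sequences are from RefSeq (GRCm38.p6), run from 250 bases before to 30 bases after the annotated start, and have matches to either motif in capitals, on either strand. On the opposite strand the CHR reads TTCAAA and the CCAAT box reads ATTGG.
Spc25, chr2:69206184-69206463, minus strand: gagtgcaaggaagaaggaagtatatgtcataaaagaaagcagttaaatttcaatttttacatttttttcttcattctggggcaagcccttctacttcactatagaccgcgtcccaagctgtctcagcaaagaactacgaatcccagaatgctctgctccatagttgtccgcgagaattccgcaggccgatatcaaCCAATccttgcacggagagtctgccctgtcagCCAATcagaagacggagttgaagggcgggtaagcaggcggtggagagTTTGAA
Mki67, chr7:135716350-135716629, minus strand: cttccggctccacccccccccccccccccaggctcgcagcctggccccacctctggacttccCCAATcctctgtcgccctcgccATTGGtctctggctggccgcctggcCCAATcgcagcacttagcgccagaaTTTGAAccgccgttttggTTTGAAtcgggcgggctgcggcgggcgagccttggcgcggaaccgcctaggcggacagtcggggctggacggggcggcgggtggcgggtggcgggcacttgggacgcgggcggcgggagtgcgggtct
Top2a, chr11:99024160-99024439, minus strand: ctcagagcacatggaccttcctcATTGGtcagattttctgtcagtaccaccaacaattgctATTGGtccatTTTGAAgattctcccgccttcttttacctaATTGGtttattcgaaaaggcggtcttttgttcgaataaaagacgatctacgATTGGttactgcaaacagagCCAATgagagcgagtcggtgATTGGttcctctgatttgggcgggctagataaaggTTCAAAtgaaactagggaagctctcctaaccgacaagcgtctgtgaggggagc
In Spc25 the CCAAT boxes were at bases -55 to -51 and -23 to -19 and the CHR at bases 25 to 30, counted from 1 at the start with no base 0. The matches to the motifs did not overlap each other. Over the full 300 bases to base 50 after the start, 17.9% of all 32851 promoter windows held a CHR, 37.4% a CCAAT box and 6.95% both. Of 28 kinetochore and centromere genes with a window, 12 held a CHR, 19 a CCAAT box and 10 both, and of 20 genes of mitosis and proliferation 11, 17 and 11 did. Ndc80 had a CHR on the opposite strand at bases 30 to 35 and no CCAAT box in its window, and Nuf2 had neither.

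The other subunits of the NDC80 complex on the array went the opposite way to Spc25. Nuf2 read 0.171 to 0.427 in retina at site 2 (median 0.214), against 0.842 to 1.29 in cortex (median 0.964). At the first site it read 0.116 to 0.234 in retina, against 0.994 to 1.18 in cortex. Nuf2 was thus lower in retina by -2.05 log2 (SE 0.21, adjusted p = 6.22e-08 in limma) at site 2 and by -2.62 (SE 0.21, adjusted p = 1.80e-09 in limma) at the first site. Ndc80 was dim, at 0.0002 to 0.0920 in retina and 0.157 to 0.235 in cortex at site 2. At the first site it read 0.0290 to 0.0852 in retina and 0.221 to 0.361 in cortex. The tissues did not overlap at either site, and the log2 differences were -3.18 (SE 1.15, adjusted p = 0.0226 in limma) at site 2 and -2.60 (SE 1.15, adjusted p = 0.0593 in limma, not called) at the first site. Retina replicate 2 of site 2 held the lowest value. Without it the Ndc80 difference was -1.498 at site 2 (SE 0.29, adjusted p = 2.07e-04 in limma), and the first-site difference of -2.60 passed the call (SE 0.27, adjusted p = 1.45e-07 in limma). When intensities were floored at their 25th percentile, Ndc80 was at -0.09 at site 2 and was no longer called, as was also the case after adding 0.1 to each intensity (-0.94) and in a model of only the compared groups (adjusted p = 0.0968 in limma). At the first site Ndc80 was called after quantile normalization, with a floor at the 5th percentile, with 0.1 added, with a replicate block, with limma's trended variance and in the model of only the compared groups, at -2.60 to -1.38. Spc24 is not analysed here.

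Among 32 kinetochore and centromere genes tested, 1 was called higher in retina, Spc25 itself, at either site. Another 15 were called lower in retina at site 2 and 14 at the first site, and 16 and 17 were not called. With Spc25, the share called was 50% at site 2 and 46.9% at the first site, against 24.6% and 24.9% of all tested probes. The median difference of the list was -0.86 at site 2 and -0.98 at the first site, against -0.05 and -0.04 over all tested probes. Birc5, which encodes the chromosomal passenger protein survivin, was lowest in retina relative to cortex by its mean over the sites, at -3.54 and -3.94 log2. Cenpk (-3.28 and -3.54) and Cenpw (-3.03 and -3.38), both of the inner kinetochore, followed. All 3 were dim in retina, so their size depends on how dim values are treated. Over the alternatives the site 2 difference ran from -3.64 to -3.04 for Birc5, -3.39 to -2.52 for Cenpk and -3.13 to -2.60 for Cenpw. The highest adjusted p of these 3 in limma was 9.48e-13, over both sites.

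**Figure D2:**
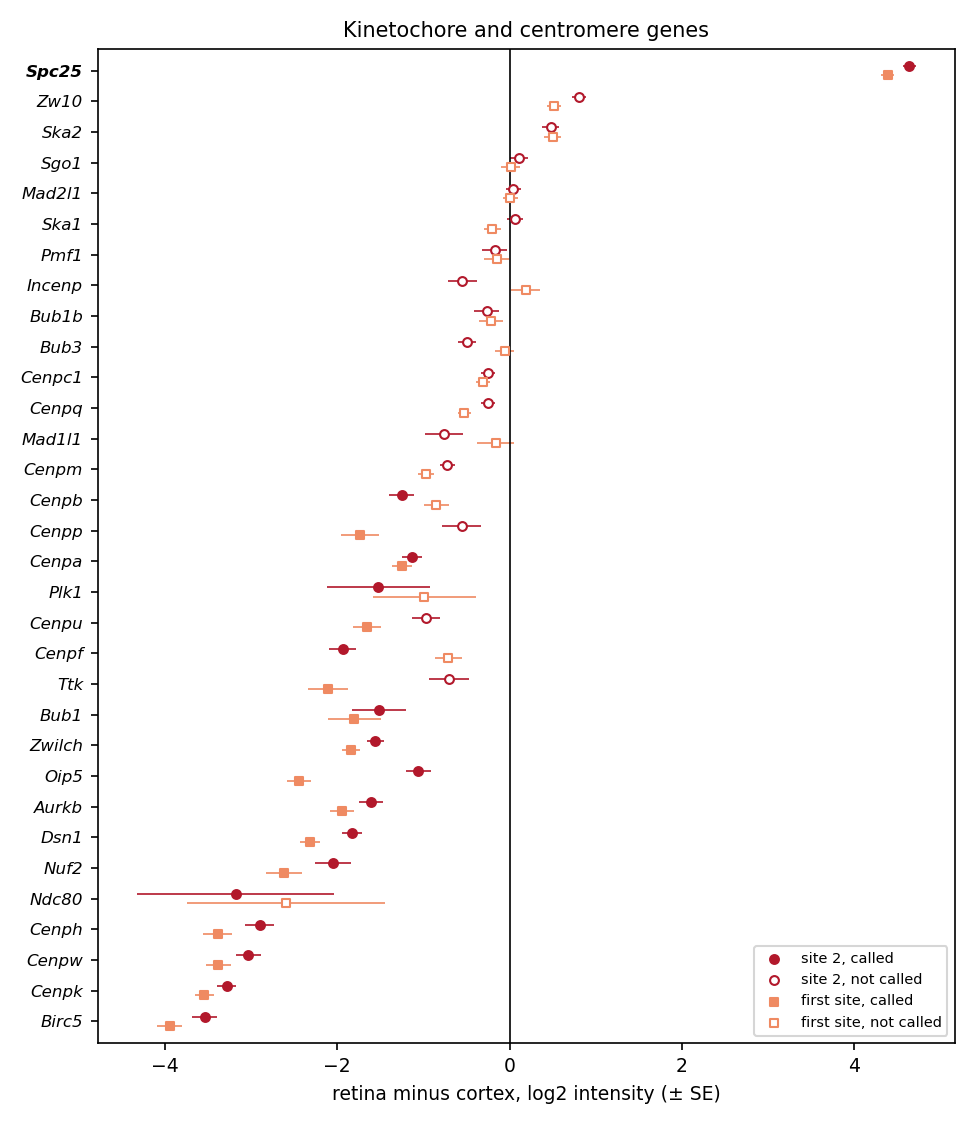
Retina minus cortex difference in log2 intensity (± SE) for the 32 kinetochore and centromere genes tested, with circles for site 2 and squares for the first site, filled where called. Spc25 stands at 4.64 and 4.39, and every other filled symbol lies to the left of 0.

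Genes of mitosis and proliferation moved with the kinetochore list and not with Spc25. None of the 26 tested was called higher in retina, 17 were called lower at site 2 and 19 at the first site, and their median was -1.93 and -1.67. The share called was 65.4% at site 2 and 73.1% at the first site, against 24.6% and 24.9% of all tested probes. Mki67, which coats mitotic chromosomes, differed by -4.84 log2 at site 2 and -5.60 at the first site, and Top2a, the topoisomerase of dividing cells, by -4.69 and -5.21. Both were dim in retina, so the size depends on how dim values are treated. Over the alternatives Mki67 ran from -5.01 to -3.97 at site 2 and from -5.72 to -4.09 at the first site, and Top2a from -4.85 to -3.26 and from -5.43 to -3.02. The summed intensity of the 26 genes ran from 26.3 to 32.2 in retina and from 50.3 to 60.5 in cortex at site 2. It ran from 31.3 to 34.9 in retina and from 52.9 to 56.8 in cortex at the first site. Much of the retina sum was Pcna, which was not called at site 2 (0.03) or at the first site (0.16). Without Pcna the sum was 12.5 to 19.4 in retina and 37.9 to 43.9 in cortex at site 2. It was 10.7 to 11.4 in retina and 34.7 to 36.1 in cortex at the first site. In bulk tissue, fewer cells of a type and less RNA per cell cannot be told apart.

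The Car2 gene lies on chromosome 3 (chr3:14886269-14900770, GRCm38.p6). Its probe was also bright in retina and dimmer in cortex. At site 2 the retina arrays read 32.9, 31.3, 37.7, 34.2 and 32.8, against 1.77, 1.77, 1.91, 1.82 and 1.25 on the cortex arrays. At the first site the retina arrays read 47.8, 44.9, 44.6, 47.4 and 50.7, against 2.64, 2.94, 3.25, 3.19 and 2.72 on the cortex arrays. Retina and cortex did not overlap at either site. Car2 was 20.01-fold higher in retina at site 2 (4.32 log2, SE 0.10) and 16.0-fold higher at the first site (4.00 log2, SE 0.10). The 95% interval of the fold ran from 17.3 to 23.2 at site 2 and from 13.8 to 18.5 at the first site. These intervals rest on 1 spread shared by the 4 groups. In cortex at site 2 the SD of Car2 was 0.25 log2, against 0.08 to 0.13 in the other groups. The median SD of all tested probes was also larger there, at 0.225 against 0.158 to 0.165, so the site 2 interval may be too narrow. A higher difference was found in 58 probes at site 2 and in 74 at the first site.

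Carbonic anhydrases differ in where they act, some in the cytosol, some in mitochondria and some on the cell surface, and the family did not move as one. Of 13 family members tested, 5 were called higher in retina at site 2 and 4 at the first site, and 2 and 3 were called lower. The share called was 53.8% at each site, against 24.6% of all tested probes at site 2 and 24.9% at the first site. The list's median was 0.22 at site 2 and 0.52 at the first site, against -0.05 and -0.04 over all tested probes. Car3, a cytosolic isoform known from muscle, rose by 2.51 and 3.32 log2, and Car5b, a mitochondrial isoform, by 1.34 and 2.13 (adjusted p of 1.02e-09 or less in limma). Car5b lost its site 2 call on log2 of intensity plus 0.1 (0.95). Car3 read 0.481 to 0.580 in retina and 0.0678 to 0.118 in cortex at site 2, so its fold rests on dim cortex values. Car7, a cytosolic isoform of neurons, was called at 1.01 and 1.13, although its retina and cortex arrays overlapped at site 2. The site 2 call was lost without retina replicate 2 (0.79), cortex replicate 1 (0.85) or cortex replicate 5 (0.91) of site 2. With the 25th percentile floor Car7 was at 0.15 and 0.24 and was called at neither site. Car8, a family member without the catalytic activity, was called at site 2 (1.72) and not at the first site (0.81). It was called there without retina replicate 3 of the first site (1.04).

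In the other direction, Car4, a membrane-anchored isoform, differed by -2.47 log2 at site 2 and -2.19 at the first site (adjusted p = 4.27e-10 and 2.35e-09 in limma). When intensities were floored at their 25th percentile, Car4 was no longer called, at -0.50 and -0.53. Car13, another cytosolic isoform, read 0.154 to 0.185 in retina and 0.448 to 0.733 in cortex at site 2. It differed by -1.71 at site 2 and -1.93 at the first site (adjusted p = 2.73e-11 and 4.32e-12 in limma). Car11, a family member without the catalytic activity, passed at the first site (-1.14) and missed the fold limit at site 2 (-0.90), where it passed without cortex replicate 5 (-1.01).

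**Figure D3:**
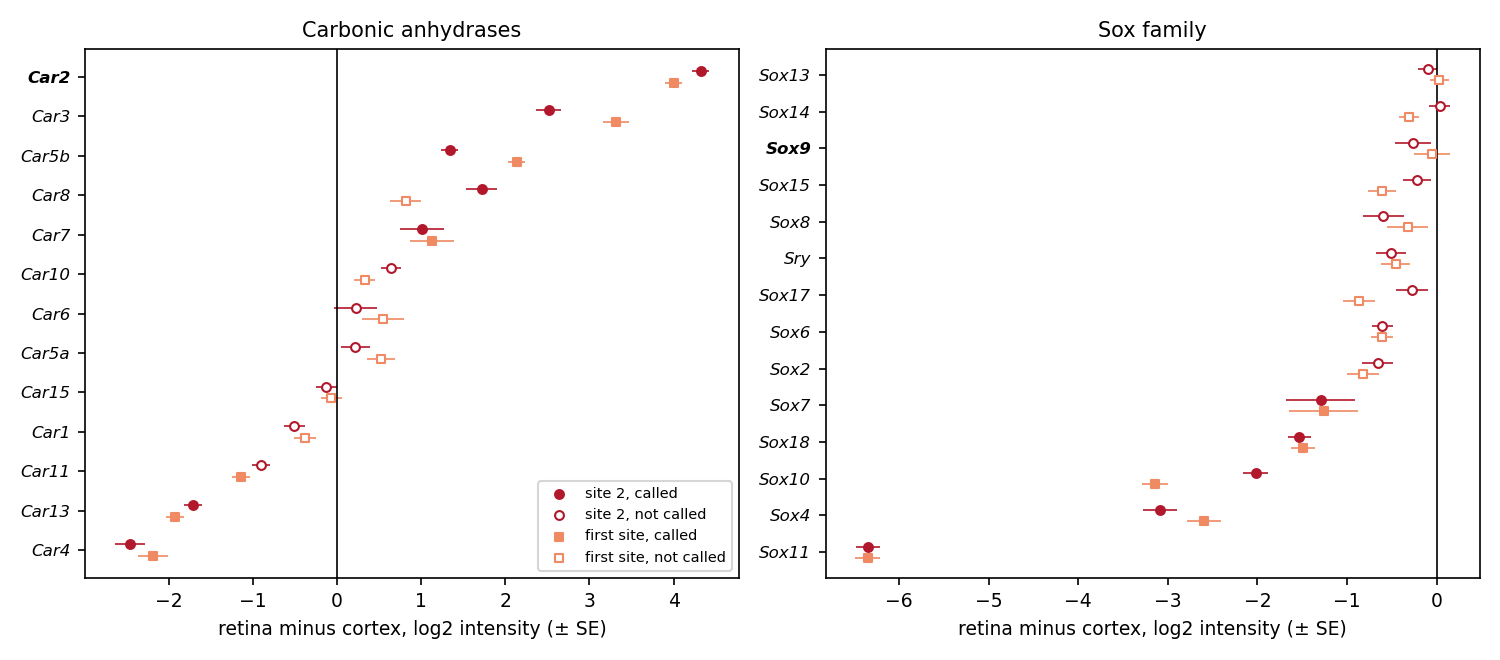
Retina minus cortex difference in log2 intensity (± SE) for 13 carbonic anhydrases (left) and 14 Sox genes (right), with circles for site 2 and squares for the first site, filled where called. Car2 leads its family at 4.32 and 4.00, with Car4 and Car13 on the other side of 0, while Sox9 lies near 0 (-0.26 and -0.05) and every called Sox gene is lower in retina.

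Genes of acid and base transport were examined beside Car2, most of them transporters of lactate or bicarbonate. Of 11 tested, 3 were called higher in retina at site 2 and 2 at the first site, and 1 was called lower at each. Of the 3 called higher at site 2, 1 is not itself a transporter. In either direction 36.4% were called at site 2 and 27.3% at the first site, against 24.6% and 24.9% of all tested probes. The list's median was 0.09 at site 2 and 0.28 at the first site, against -0.05 and -0.04 over all tested probes. Slc16a3 and Slc16a1, which move lactate together with protons, were higher in retina by 2.84 and 2.34 log2 at site 2 and by 2.85 and 2.42 at the first site. Slc16a7, another monocarboxylate transporter, was lower by -1.20 and -1.17. Their adjusted p in limma was 3.72e-10 or less at both sites.

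Other cells that make Car2 were followed through their markers. Of 10 oligodendrocyte lineage genes tested, 1 was called higher in retina and 5 lower at each site. The share called was 60% at each, against 24.6% of all tested probes at site 2 and 24.9% at the first site. The summed intensity of the 11 measured was 6.37 to 11.3 in retina and 16.4 to 17.6 in cortex at site 2, and 7.80 to 9.09 in retina and 25.6 to 29.0 in cortex at the first site. Of 9 erythroid genes tested, 0 were called higher in retina, and 2 were called lower at site 2 and 1 at the first site. The share called, 22.2% at site 2 and 11.1% at the first site, was no larger than that of all tested probes. The list's median was -0.68 at site 2 and -0.07 at the first site, against -0.05 and -0.04 over all tested probes. The alpha-globin gene Hba-a1 differed by -2.41 and -1.86 log2 (adjusted p = 4.72e-14 and 2.20e-12 in limma). The 10 erythroid genes measured summed to 16.7 to 19.9 in retina and 58.7 to 74.0 in cortex at site 2, and to 20.5 to 25.1 in retina and 52.9 to 62.5 in cortex at the first site. Olig2 of the oligodendrocyte list and Alas2 of the erythroid list had no value above 0 on any array of site 2. In each list 1 gene made up much of the sum. Without Hba-a1 the erythroid sum was 6.06 to 6.83 in retina and 8.39 to 9.20 in cortex at site 2, and 8.54 to 10.1 in retina and 10.2 to 10.9 in cortex at the first site. Without Pdgfra, a receptor of oligodendrocyte precursors, the oligodendrocyte sum was 3.68 to 8.40 in retina and 6.80 to 8.67 in cortex at site 2, where the tissues overlapped. It was 3.06 to 3.54 in retina and 7.08 to 8.55 in cortex at the first site. The part of these cells in the Car2 result was not tested.

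The Sox9 gene lies on chromosome 11 (chr11:112782210-112787757, GRCm38.p6). Unlike the other genes, Sox9 was not called between the tissues, and its probe was dim. At site 2 the retina arrays read 0.672, 0.548, 0.630, 0.524 and 0.678, against 0.786, 0.834, 0.878, 0.645 and 0.552 on the cortex arrays. At the first site the retina arrays read 0.243, 0.284, 0.302, 0.199 and 0.195, against 0.215, 0.183, 0.423, 0.281 and 0.206 on the cortex arrays. The tissues overlapped at both sites. The log2 difference was -0.26 (SE 0.20, adjusted p = 0.264 in limma) at site 2 and -0.05 (SE 0.20, adjusted p = 0.842 in limma) at the first site. The 95% interval of the retina over cortex ratio was 0.6252 to 1.11 at site 2 and 0.723 to 1.29 at the first site, so the 2-fold limit lay outside it on both sides. The first-site value turned to 0.09 after quantile normalization and to 0.14 without cortex replicate 3, the 1 cortex array above the others there.

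No Sox gene was called higher in retina at either site. Of 14 tested, 5 were called lower at each, and the median of the list was -0.60 at site 2 and -0.72 at the first site. The share called lower was 35.7% at each site, against 13.5% of all tested probes at site 2 and 13.0% at the first site. Sox8, of the same SoxE subfamily as Sox9, was not called (-0.59 and -0.32 log2). Sox10, the third SoxE gene and a factor of oligodendrocytes, differed by -2.02 and -3.14 (adjusted p = 3.00e-10 and 3.95e-13 in limma). Sox4 and Sox11 are factors of newborn neurons. Sox4 differed by -3.09 and -2.60 and Sox11 by -6.34 and -6.35. Sox10, Sox4 and Sox11 were dim in retina, and their size depends on how dim values are treated. Over the alternatives the first-site difference ran from -3.23 to -2.45 for Sox10, -2.75 to -1.63 for Sox4 and -6.44 to -5.64 for Sox11. A dimmer probe of Sox11 was not called at either site (-0.31 and -0.12). Astrocyte markers were mixed, with 5 of 15 called higher and 5 lower in retina at site 2, and 5 higher and 4 lower at the first site. In either direction 66.7% were called at site 2 and 60% at the first site, against 24.6% and 24.9% of all tested probes. Of these markers 7 also stand in other lists. Their summed intensity was 61.1 to 66.9 in retina and 23.4 to 30.9 in cortex at site 2, and 88.8 to 98.4 in retina and 39.0 to 44.1 in cortex at the first site. Most of the retina sum was Aldoc, the aldolase of astrocytes and Müller glia, and without it the sum was 21.0 to 23.2 in retina and 15.002 to 20.1 in cortex at site 2, and 25.2 to 26.6 in retina and 20.5 to 22.2 in cortex at the first site. The list's median ran the other way, at -0.18 and -0.30. The largest differences called at both sites were 2.50 and 3.19 for Slc1a2 and -4.39 and -4.25 for Acsbg1. Gfap, the intermediate filament of astrocytes and of stressed Müller glia, was not called (-0.19 and -0.15). Aldh1l1, another astrocyte marker, was called lower in retina at site 2 (-1.13, adjusted p = 0.00611 in limma) and was not called at the first site (-0.32). It was dim, with a geometric mean of 0.0462 in retina and 0.101 in cortex at site 2.

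Sox9 differed between the sites in both tissues. It was 2.52-fold higher at site 2 in retina (log2 difference 1.34, SE 0.20, adjusted p = 2.43e-05 in limma) and 2.92-fold higher at site 2 in cortex (1.55, SE 0.20, adjusted p = 5.33e-06 in limma). No array of site 2 overlapped with any of the first site in the same tissue, which was the case for 39.1% of probes in retina and 31.9% in cortex. By the call rule 6.24% of probes differed between sites in retina (4.79% higher at site 2, 1.45% lower) and 7.21% in cortex (5.29% higher, 1.92% lower). Dim probes shifted towards site 2 more often. With the tested probes split by mean log2 intensity into 4 classes of equal size, Sox9 lay in class 2 from the dim end, where 5.38% of probes were called higher at site 2 in retina and 6.03% in cortex. In the brightest class, which held Car2 and Spc25, 1.55% and 1.51% were. Per the labels, both sites received the same RNA pools. The part of brightness in the Sox9 shift was not tested.

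Car2 and Spc25 shifted the other way, by less than 2-fold. Car2 was lower at site 2 by -0.48 log2 in retina and -0.80 in cortex (SE 0.10 each, adjusted p = 7.24e-04 and 4.43e-06 in limma). Spc25 was lower by -0.57 in retina and -0.82 in cortex (SE 0.07 each, adjusted p = 6.11e-06 and 1.19e-07 in limma). Adjusted p was under 0.05 at any size in 46.7% of probes in retina and 46.8% in cortex. The difference between tissues depended on the site by 0.32 log2 for Car2 (SE 0.14, adjusted p = 0.198 in limma), 0.25 for Spc25 (SE 0.10, adjusted p = 0.175 in limma) and -0.21 for Sox9 (SE 0.28, adjusted p = 0.687 in limma). None of these passed the call, which 0.725% of probes did, nor an adjusted p under 0.05 at any size, which 3.98% did. After quantile normalization the value for Spc25 was 0.58, with an adjusted p of 0.00504 in limma and still under 2-fold.

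**Figure D4:**
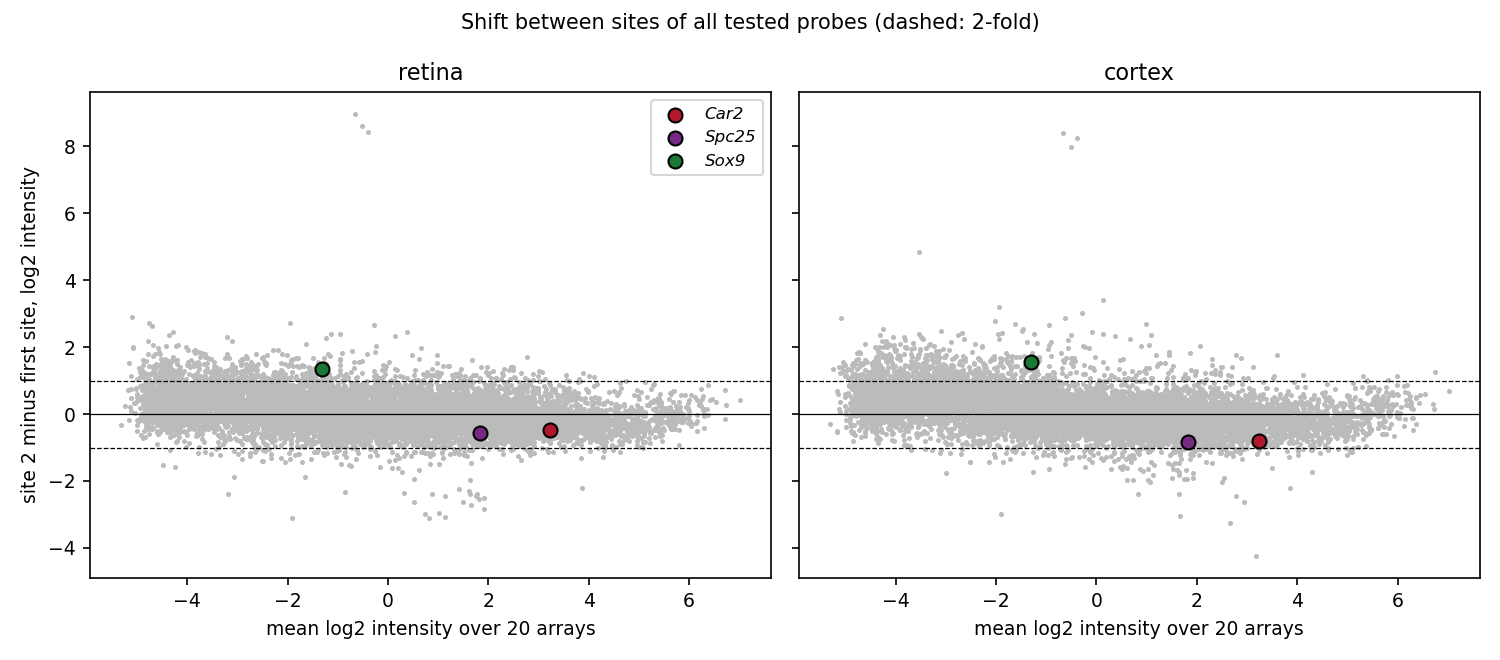
Difference between site 2 and the first site in log2 intensity against mean log2 intensity over the 20 arrays, in retina (left) and cortex (right), with each grey point 1 of 10339 probes and dashed lines at 2-fold. Sox9 lies above the upper line (1.34 in retina, 1.55 in cortex) among the dimmer probes, and Car2 and Spc25 lie between 0 and the lower line.

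The order of the groups differed accordingly. Car2 and Spc25 were highest in retina at the first site, then in retina at site 2, then in cortex at the first site, then in cortex at site 2, and no neighbours in that order overlapped. Sox9 was highest in cortex at site 2 and then in retina at site 2, which overlapped. Below these lay cortex and then retina of the first site, which also overlapped, and the site 2 groups lay wholly above them. Spc25 varied least among arrays in retina at the first site, with an SD of 0.04 log2, and 98.2% of probes had a larger SD there. For Car2 it ran from 0.08 to 0.25 over the groups. For Sox9 it ran from 0.17 to 0.48, the largest being cortex at the first site, where 9.72% of probes had a larger SD. As a measure of brightness, Sox9 read 9.40 to 16.1 times the 5th percentile of its array at site 2 and 4.29 to 10.1 times at the first site.

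The genes whose profile over the 20 arrays was nearest were named by the root mean square distance between log2 profiles, each centred on its own mean, among 8610 probes with a value above 0 on every array. These arrays hold 2 RNAs at 2 sites, so the points are not independent. For Car2 and Spc25 a profile is mostly the difference between tissues, for which Spc25 was chosen. Genes with a tissue difference of like size therefore come out near them, and nearness or a high r does not show a shared role. Nearest to Spc25 were Otx2, a homeodomain factor of photoreceptors and bipolar cells (distance 0.15 log2, Pearson r = 0.998), Mab21l1, a gene of eye development (0.20, r = 0.997), and Gpsm2, which orients the mitotic spindle (0.21, r = 0.996). Nearest to Car2 were Kcna5, a voltage-gated potassium channel (0.18, r = 0.996), Mab21l1 (0.19, r = 0.997) and Otx2 (0.20, r = 0.998). The distance between Car2 and Spc25 themselves was 0.23 (r = 0.998). Nearest to Sox9 were Pitpnc1, a phosphatidylinositol transfer protein (0.27, r = 0.943), Tmem270 (0.32, r = 0.913) and Crim1, a membrane protein that binds bone morphogenetic proteins (0.33, r = 0.918). Those 3 genes were also higher at site 2, by 1.24 to 1.43 log2 in retina and by 1.24 to 1.72 in cortex.

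Müller glia genes at large were mixed. Of 32 such genes tested, 12 passed the call as higher in retina at either site. Car2 and Spc25 are among these 12, and Spc25 was chosen for being high in retina. Without Car2, Sox9 and Spc25, 10 of 29 were called higher at either site, and the median was 0.45 at site 2 and 0.57 at the first site. Of all 32, 1 was called lower and 19 were not called at site 2, and 2 were called lower and 18 not called at the first site. In either direction 40.6% of the 32 were called at site 2 and 43.75% at the first site, against 24.6% and 24.9% of all tested probes. The median of all 32 was 0.46 and 0.63 log2, against -0.05 and -0.04 over all tested probes, and 12 of the 32 also stand in other lists used here. Aldh1a1, a retinaldehyde dehydrogenase, differed by 3.29 and 3.19. Rlbp1, the retinaldehyde carrier of Müller glia and pigment epithelium, was 4.28-fold higher at site 2 and 5.03-fold at the first site. Glul, glutamine synthetase, read 89.4 to 104 in retina and 20.6 to 31.2 in cortex at site 2, and was 4.05-fold and 3.08-fold higher. Aqp4, the water channel of glial endfeet, was 3.19-fold and 4.23-fold higher. Among these 4 genes the highest adjusted p in limma was 1.71e-09.

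Other genes of Müller glia stayed with Sox9 near equal levels. Vim, vimentin, differed by 0.14 and 0.11 log2, and Slc1a3, the glutamate transporter GLAST, by 0.06 and -0.30, and neither was called. Slc1a3 turned to -0.02 at site 2 after quantile normalization. Both are also made by radial glia of newborn cortex. Fgfr3, a fibroblast growth factor receptor, went the other way at -2.90 and -3.34 (adjusted p = 1.71e-10 and 1.94e-11 in limma). Its retina values were near the dim end of the arrays, and over the alternatives its difference ran from -3.02 to -2.001 at site 2 and from -3.44 to -1.27 at the first site. The 32 genes summed to 473 to 518 in retina and 254 to 275 in cortex at site 2, and to 556 to 619 in retina and 295 to 329 in cortex at the first site. Genes of the pigment epithelium, which also expresses Sox9 and Rlbp1, included 6 of 12 called higher in retina at site 2 and 7 at the first site, with 1 called lower at each. The share called was 58.3% at site 2 and 66.7% at the first site, against 24.6% and 24.9% of all tested probes. The list's median was 1.49 log2 at site 2 and 1.74 at the first site, and Rpe65, the retinoid isomerase that defines these cells, differed by 4.99 and 4.63. The summed intensity was 53.6 to 57.6 in retina and 73.9 to 90.8 in cortex at site 2, and 62.3 to 66.5 in retina and 56.8 to 74.7 in cortex at the first site, and most of it was Ttr, transthyretin. Without Ttr the sum was 21.0 to 23.7 in retina and 3.41 to 4.42 in cortex at site 2, and 26.3 to 29.9 in retina and 3.93 to 4.64 in cortex at the first site. The part of these cells in the results was not tested.

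**Figure D5:**
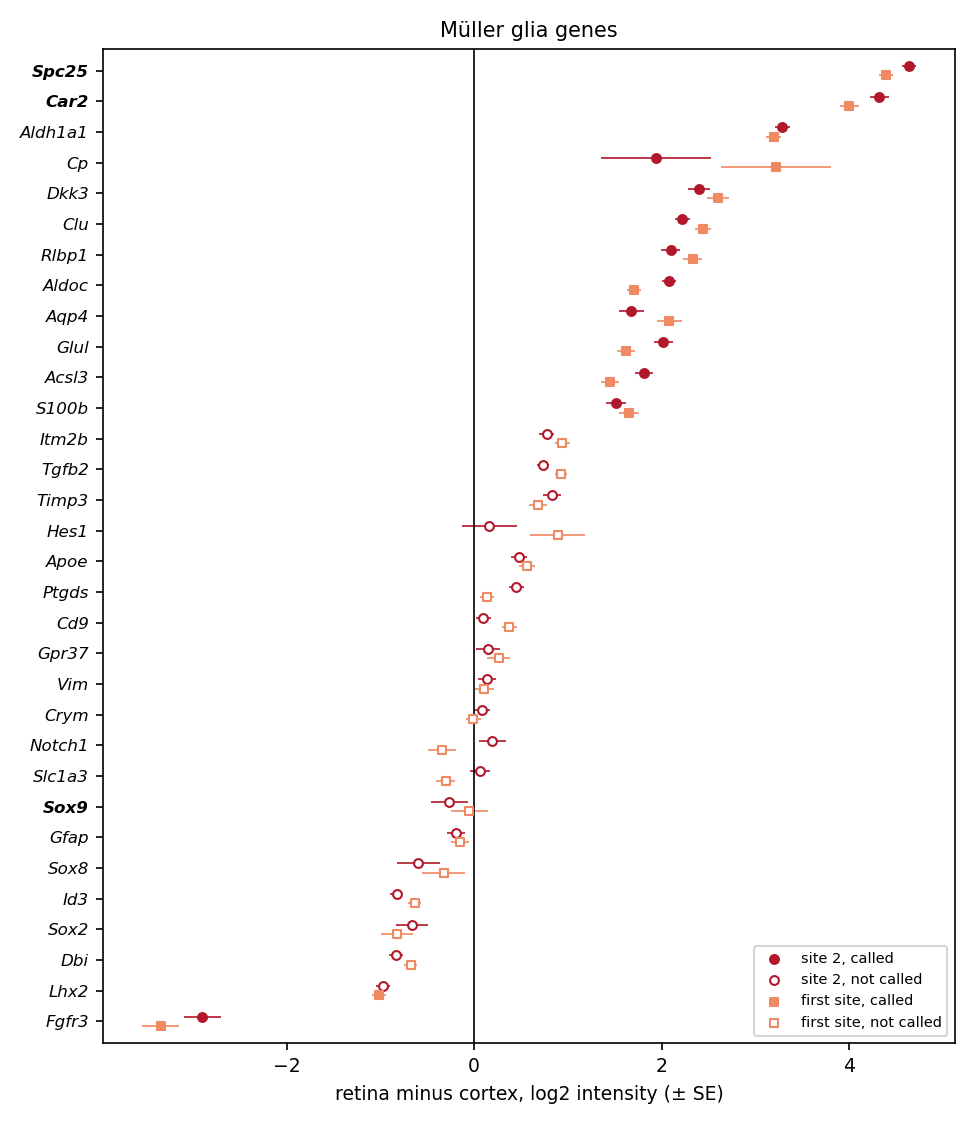
Retina minus cortex difference in log2 intensity (± SE) for the 32 Müller glia genes tested, with circles for site 2 and squares for the first site, filled where called. Spc25 and Car2 stand at the top (4.64 and 4.32 at site 2), Sox9 lies among the open symbols near 0, and Fgfr3 is lowest at -2.90 and -3.34.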

How the data were processed

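RNA of 2 mouse pools was measured on 20 CodeLink arrays. Each array has 1 deposited intensity per probe. Per the labels' protocols, RNA was labelled with biotin for the CodeLink assay. What software, background step and scaling made the values is not given in the sources used here. Background appears, by the values, to have been subtracted (143 lie at or below 0) and arrays appear scaled to a common median. Blank values numbered 2080. No detection flag was used, so a dim probe cannot be told from background.

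Probes were named from the platform annotation (9378 with 1 symbol). The accession behind the Car2 probe is a RefSeq transcript of that gene; those of Sox9 and Spc25 are not among the RefSeq transcripts used here, so these names rest on the annotation. Log2 intensities (values at or below 0 missing) were kept without further normalization, since array medians differed by at most 0.0594 log2. Probes with a value on at least 3 of 5 arrays in each group were fitted with limma 3.58.1 in R 4.3.3 (group means, lmFit, eBayes). The fit was tested on simulated data. Python 3.11.15 made tables and plots. Motifs were searched in RefSeq promoter windows.

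The genes and lists were chosen with earlier results of these data known. Named besides the 3 genes are some of the largest changes of the lists called at both sites, some fixed defining markers and family members, and the nearest profiles. Not every gene of these kinds is named. Ttr, Pdgfra and Pcna were named after their values were seen. The sums of lists without their brightest gene and the Müller counts without the 3 genes were also added then. For a gene with several probes the brightest stood for it. Alternatives were other normalizations, floors, filters, models and leaving out each array.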

Additional observations from a re-analysis of the deposited data

Results flagged for a closer look

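Among 176 groups of 5 arrays, 4 for each of 44 of the genes named here, 13 held an array apart from the rest by Dixon's test at the 95% level. Chance gives about 1 in 20 groups. For Car2, cortex replicate 5 of site 2 read 1.25, against 1.77 to 1.91 on the others. Without it the site 2 difference between retina and cortex was 4.21 log2. The same array was the lowest for Car11 (5.75), Vim (5.34) and Fgfr3 (0.599). Retina replicate 2 of site 2 was lowest for Ndc80 (0.0002, against 0.0467 to 0.0920) and for Mki67 (0.0886). Sox10 read 0.497 on retina replicate 4 of site 2, Tmem270 0.259 on retina replicate 1 of site 2, and Glul 40.3 on cortex replicate 4 of the first site. Pitpnc1 read 0.320 on cortex replicate 3 of the first site, the array on which Sox9 was also highest, and Crim1 0.123 on cortex replicate 2 of the first site. Slc16a1 read 19.8 on retina replicate 3 of the first site and Ttr 34.2 on retina replicate 5 of the first site.

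The difference between tissues depended on the site, by limma's test of site 2 minus the first site at an adjusted p under 0.05, for 5 named genes. It was -0.80 log2 for Car3, -0.79 for Car5b, -0.55 for Hba-a1, -0.53 for Ttr and 1.12 for Sox10. At any size, 3.98% of all probes passed that test.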

How the results depend on the processing

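Over 30 alternatives (other normalizations, floors, filters and models, and each array left out), the calls of Car2 and Spc25 between tissues and of Sox9 between sites kept their direction and side of the threshold. Their log2 ranges between retina and cortex were 4.21 to 4.37 for Car2 and 4.41 to 4.80 for Spc25 at site 2, and 3.92 to 4.04 and 4.22 to 4.41 at the first site. The first-site difference of Sox9, never called, turned to 0.0869 after quantile normalization and ran from -0.16 to 0.14 with 1 array left out. Quantile normalization also gave -0.0164 for Slc1a3, 0.0118 for Pitpnc1 and 0.142 for Tmem270 at site 2. With a floor at the 25th percentile Tmem270 was at 0 at the first site, and Crim1 at site 2 ran from -0.0512 to 0.0343 with 1 array left out.

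Counts moved too. Müller genes called lower numbered 2 at site 2 after quantile normalization and 1 at the first site on log2 of intensity plus 0.1, and 1 to 2 at either site with 1 array left out. The 25th percentile floor left 9 kinetochore genes lower at the first site and 1 carbonic anhydrase lower at site 2, and adding 0.1 left 3 carbonic anhydrases higher at site 2. Probes called higher at site 2 than at the first site numbered 298 in retina and 251 in cortex after quantile normalization, 183 and 214 with that floor, and 150 and 213 with 0.1 added, against 495 and 547. Probes whose tissue difference was higher at site 2 numbered 16 with the floor and 7 with 0.1 added, against 28. Those lower numbered 28 with 0.1 added, against 47, and 33 to 91 with 1 array left out, the most without cortex replicate 5 of site 2. The causes were not tested.

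Arrays with the same replicate number did not deviate together, so the numbers do not pair them. With a replicate block the adjusted p of Sox9 in limma was 0.203 at site 2 (-0.26) and 0.819 at the first site (-0.05), and no call of the 3 genes changed. The block gave 1143 probes higher and 1391 lower in retina at site 2, and 1230 and 1343 at the first site.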
